A study of Mus musculus with 33 samples.

Results

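The 50 histone genes described here are rows of a count table of single mouse heart cells. They were chosen by name: every row whose symbol starts with Hist1h, Hist2h, Hist3h, Hist4h, H2af, H1f or H3f and that has at least 10 counts over all cells. Of the 14862 rows of the table, 62 carried such a name and 50 reached the minimum. The 40 replication-linked rows (Hist symbols) encode H1 (5 rows), H2A (11), H2B (9), H3 (8) and H4 (7), and the 10 variant rows are H1f0, H1fx, H2afj, H2afv, H2afx, H2afy, H2afy2, H2afz, H3f3a and H3f3b. The 12 rows below the minimum had 1 to 8 counts each in the whole table. They were Hist1h1t, Hist1h2aa, Hist1h2ah, Hist1h2bf, Hist1h2bg, Hist1h3f, Hist1h3i, Hist1h4k, Hist1h4n, Hist2h2ac, Hist2h2bb and H1fnt.

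The cells came from the ventricles of transgenic mice that carry mAG-hGem, a geminin fragment fused to the green fluorescent protein Azami Green, which is the green arm of the FUCCI cell cycle reporter. All groups carry this reporter, which accumulates in S, G2 and M phase and is degraded in G1. The study took mAG-hGem signal as the mark of cycling cells. At embryonic day 14.5 (E14.5) there were 10 mAG-hGem positive and 11 mAG-hGem negative cells, and at postnatal day 5 (P5) there were 6 of each. A group is called below by its age and sort, and a single cell by its title (G1, N21, L2P12 and so on). The labels call every cell a single cardiomyocyte, accepted by PCR for the cardiomyocyte gene Tnnt2. No animal is named for any cell, so each group is 1 sample of cells: no difference between groups could be tested, and the spread given is the spread between cells.

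Histones package DNA into nucleosomes. Replication-linked histone genes sit in clusters, are transcribed mainly in S phase and give short mRNAs that end in a stem-loop in place of a poly(A) tail. The stem-loop is bound by SLBP, and these mRNAs are degraded when DNA synthesis stops. Variant histone genes are transcribed through the cell cycle into polyadenylated mRNAs, and their proteins are placed into chromatin outside replication as well: H2A.Z at promoters, H2A.X at sites of DNA breaks, macroH2A in repressed chromatin and H3.3 in active genes. Cardiomyocytes divide in the fetal heart and mostly leave the cell cycle in the first days after birth, so these cells bracket that change.

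The libraries were deep but uneven. Total counts ran from 2.55 to 38.5 M per cell (M, 1000000 counts), with a median of 12.8 M. Values are counts per 1000000 of a cell's total (CPM), and a group's level is the CPM of the counts summed over its cells. Intervals are 95% intervals that cover counting error only. The RNA of each cell was amplified, so these intervals are much narrower than the differences from cell to cell. Of all values of the 50 rows in single cells, 64.5% were 0.

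The labelled cell type was checked with the summed CPM of 11 cardiomyocyte markers and of markers of 4 other cell types. The cardiomyocyte sum was the highest of the 5 in all 10 positive and 10 of the 11 negative cells at E14.5. At P5 it was so in 5 of the 6 positive cells and in none (0 of 6) of the negative ones. In N10, the E14.5 negative exception, fibroblast and mural markers summed to 46201 CPM against 23308 CPM for cardiomyocyte markers. In L2P12, the P5 positive exception, all 11 cardiomyocyte markers had reads but summed to 112 CPM, where the other P5 positive cells had 23580 to 117636 CPM. Its 6 endothelial markers summed to 4597 CPM, where the other P5 positive cells had at most 8.86 CPM. In P5 negative cells the cardiomyocyte sum was 0.622 to 371 CPM, with reads for 5 (L2N10) to 9 (L2N4) of the 11 markers. Myh7 was at 0 in every P5 negative cell, and also in the P5 positive cell L2P3. The endothelial sum of the P5 negative cells was 118 to 13065 CPM. Positive and negative cells at P5 therefore differ in cell type markers as well as in the reporter, and the 2 cannot be told apart. Results that L2P12 decides are given with and without it.

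The stem-loop marks which mRNAs can end without a poly(A) tail, so it was looked for first. In the GENCODE M21 annotation of mm10 (GRCm38), the 16 bases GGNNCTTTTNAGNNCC were searched on the transcript strand, where N is any base. They were found in 27 of the 40 replication-linked genes and in 1 variant, H2afx. Of 21901 protein-coding genes 72 held a match (0.329%), and 45 of these were Hist genes or H2afx. A match is a description of the annotated transcript. A gene without one may have an annotated end that stops short of it, such as Hist1h1b, with 0 bases after the stop codon. Hist2h2be and Hist1h2bc had no match although 2192 and 742 bases are annotated after their stop codons. The form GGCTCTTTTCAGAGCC was the commonest, in 17 rows. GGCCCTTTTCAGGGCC and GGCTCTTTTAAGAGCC were found in 4 rows each, and 3 rows had a form of their own. One gene of each form is shown with 5 bases on each side, stem and loop in capitals, together with Hist3h2a, the second most counted row, whose stem-loop is the same as that of Hist1h1c.
Hist1h1c: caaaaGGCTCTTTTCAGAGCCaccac
Hist3h2a: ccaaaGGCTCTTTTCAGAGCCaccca
Hist1h3c: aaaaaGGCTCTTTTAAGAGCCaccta
Hist1h4f: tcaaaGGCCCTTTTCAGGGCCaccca
Hist1h4i: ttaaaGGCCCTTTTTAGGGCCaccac
Hist1h4j: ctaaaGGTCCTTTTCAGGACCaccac
H2afx: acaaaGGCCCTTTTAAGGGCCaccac
These sites start 25 (Hist1h1c), 42 (Hist3h2a) and 47 (H2afx) bases after the stop codon. The annotated transcripts of these 3 genes run on past the stem-loop, by 840, 1643 and 822 bases.

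Promoters were compared over 300 bases each, from 250 before to 50 after the start, in RefSeq (GRCm38.p6). A promoter was found for 37 of the 40 replication-linked genes, with 38 windows since Hist1h2be has 2, and for 9 of the 10 variants. The 3 motifs below were searched on both strands. CCAAT, the letters bound by NF-Y, stood in 34 of 38 replication-linked promoters (89.5%), in 6 of 9 variant promoters (66.7%) and in 37.4% of all 32851 promoters. At least 2 copies were present in 71.1%, 44.4% and 11.7%. TATAAA was found in 55.3% of replication-linked, 11.1% of variant and 13.6% of all promoters, and TTTGAA in 44.7%, 11.1% and 17.9%. The promoters of 4 genes on which the results turn are shown on the gene's own strand with the motif matches in capitals: the H2A.Z genes H2afv (chr11:6444394-6444693, minus strand) and H2afz (chr3:137864237-137864536, plus strand), and the most counted replication-linked genes Hist1h1c (chr13:23738557-23738856, plus strand) and Hist3h2a (chr11:58954435-58954734, plus strand).
H2afv: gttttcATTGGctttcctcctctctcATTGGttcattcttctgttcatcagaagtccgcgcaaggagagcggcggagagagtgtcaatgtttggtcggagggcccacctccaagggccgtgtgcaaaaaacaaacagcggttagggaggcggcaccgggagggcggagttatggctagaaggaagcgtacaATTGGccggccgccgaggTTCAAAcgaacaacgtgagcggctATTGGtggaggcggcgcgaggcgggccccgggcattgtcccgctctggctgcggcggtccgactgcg
H2afz: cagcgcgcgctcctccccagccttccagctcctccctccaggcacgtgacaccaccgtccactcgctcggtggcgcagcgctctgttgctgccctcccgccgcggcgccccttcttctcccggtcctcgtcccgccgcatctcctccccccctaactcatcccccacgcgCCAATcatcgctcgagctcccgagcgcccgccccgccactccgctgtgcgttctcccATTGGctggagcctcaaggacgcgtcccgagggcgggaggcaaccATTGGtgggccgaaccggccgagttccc
Hist1h1c: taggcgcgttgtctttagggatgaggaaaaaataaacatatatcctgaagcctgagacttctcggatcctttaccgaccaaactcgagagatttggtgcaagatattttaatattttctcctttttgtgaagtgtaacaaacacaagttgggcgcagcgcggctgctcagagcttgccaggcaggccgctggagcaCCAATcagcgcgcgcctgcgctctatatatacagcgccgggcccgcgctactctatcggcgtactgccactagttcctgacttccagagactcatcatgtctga
Hist3h2a: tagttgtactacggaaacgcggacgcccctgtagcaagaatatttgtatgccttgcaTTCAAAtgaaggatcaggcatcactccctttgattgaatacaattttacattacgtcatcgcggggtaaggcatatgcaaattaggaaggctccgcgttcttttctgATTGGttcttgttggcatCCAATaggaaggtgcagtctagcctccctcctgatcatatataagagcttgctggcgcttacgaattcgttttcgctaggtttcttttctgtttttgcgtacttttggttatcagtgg
The H2afv window holds 4 CCAAT matches and the H2afz window 3, with no TATAAA in either. Hist1h1c has 1 CCAAT match and Hist3h2a has 2, also without TATAAA.

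Variant genes made up most of the histone counts. Over all 33 cells the 10 variant rows summed to 5215 CPM and the 40 replication-linked rows to 520 CPM. A few rows carried each class. H3f3b held 58.4% of variant counts, H2afz 11.9%, H3f3a 11.7% and H2afv 10.97%. Of the replication-linked counts Hist1h1c, a linker histone H1 gene, held 62.5%, Hist3h2a 19.7%, Hist1h2bc 7.86% and Hist2h2be 3.48%, which is 93.5% for the 4 together. Per kb of exon, the level over all cells was 1023 CPM for H3f3b, 350 for H2afv, 348 for H2afz, 208 for Hist1h1c, 174 for H3f3a, 83.7 for H1f0, 55.2 for H2afx, 47.8 for Hist3h2a and 35.4 for Hist1h2bc. The remaining rows of both classes were at 11.9 CPM per kb (H2afy) or below.

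Most replication-linked counts fell on rows with long annotated transcripts. The 11 rows with a transcript over 1000 bases held 96.3% of the counts of their class, and the other 29 rows held 3.73%. The 15 rows whose transcript runs more than 100 bases past the stem-loop held 86.7%. The 12 rows that end within 100 bases of it held 0.935%, and the 13 rows with no match held 12.4%. Of the class counts, Hist1h2bc and Hist2h2be, both without a match, held 7.86% and 3.48%. Across the 40 genes the rank correlation of transcript length with counts was 0.45 (Spearman), given as a description since the genes share libraries and, in part, reads. The libraries were made from mRNA by reverse transcription and antisense RNA amplification, per the labels, and the part of transcript ends in these counts was not tested.

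**Figure D1:**
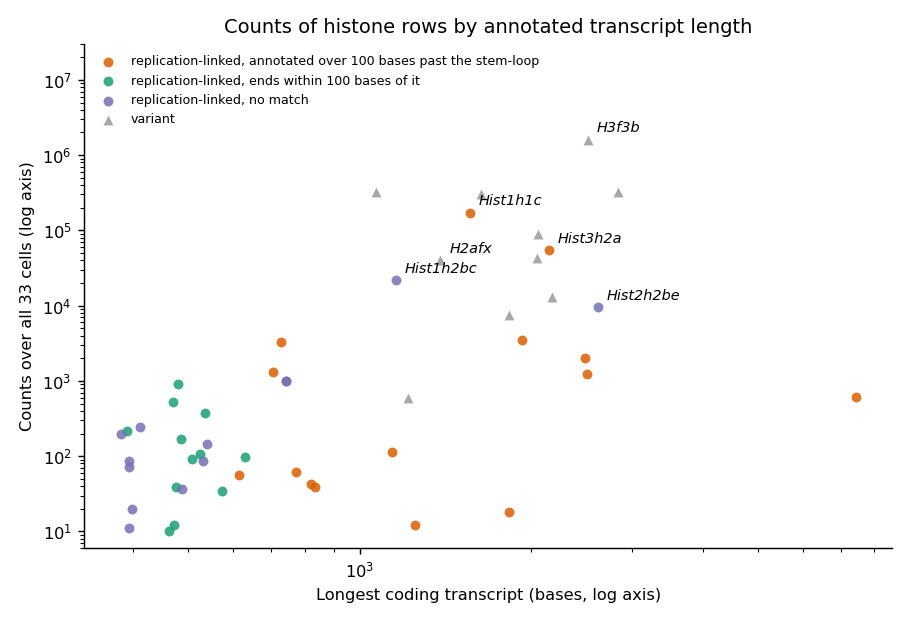
Counts over all 33 cells (log axis) against the length in bases of the longest coding transcript (log axis). The 40 replication-linked rows are circles coloured by the annotated end relative to the stem-loop, and the 10 variant rows are grey triangles. Hist1h1c, Hist3h2a, Hist1h2bc and Hist2h2be, with 93.5% of the replication-linked counts, all lie among the 11 replication-linked transcripts over 1000 bases.

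Near-identical copies limit what a replication-linked row can say. Of the 40 genes, 35 lie on chromosome 13 (between 21716422 and 23764406, a span of 2.05 Mb), 3 on chromosome 3 and 2 on chromosome 11, and 38 have a single exon. The median gene shares 43.5% of its stretches of 50 bases with another annotated gene. In 16 genes more than 50% are shared and in 5 fewer than 10%. Hist2h2be, Hist1h1a and Hist1h1b share none and Hist1h1c shares 8.54%, so all or most of their length is their own. Hist3h2a shares 31.5%, mostly with Trim17, which overlaps it. The Trim17 row itself stood at 0.389 CPM or less in every group. Hist1h2bc shares 30.1%, Hist1h1e shares 32.0% (mostly with the overlapping Hist1h2be) and Hist1h2ae 43.2%. Hist1h3h (93.9%) and Hist1h2ao (93.5%) can be read only as members of their family. How reads with several matches were counted is not given in the sources used here. Among variants the shared part is 0% for H2afv, 6.14% for H2afx, 6.86% for H3f3b, 12.3% for H3f3a and 16.9% for H2afz.

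**Figure D2:**
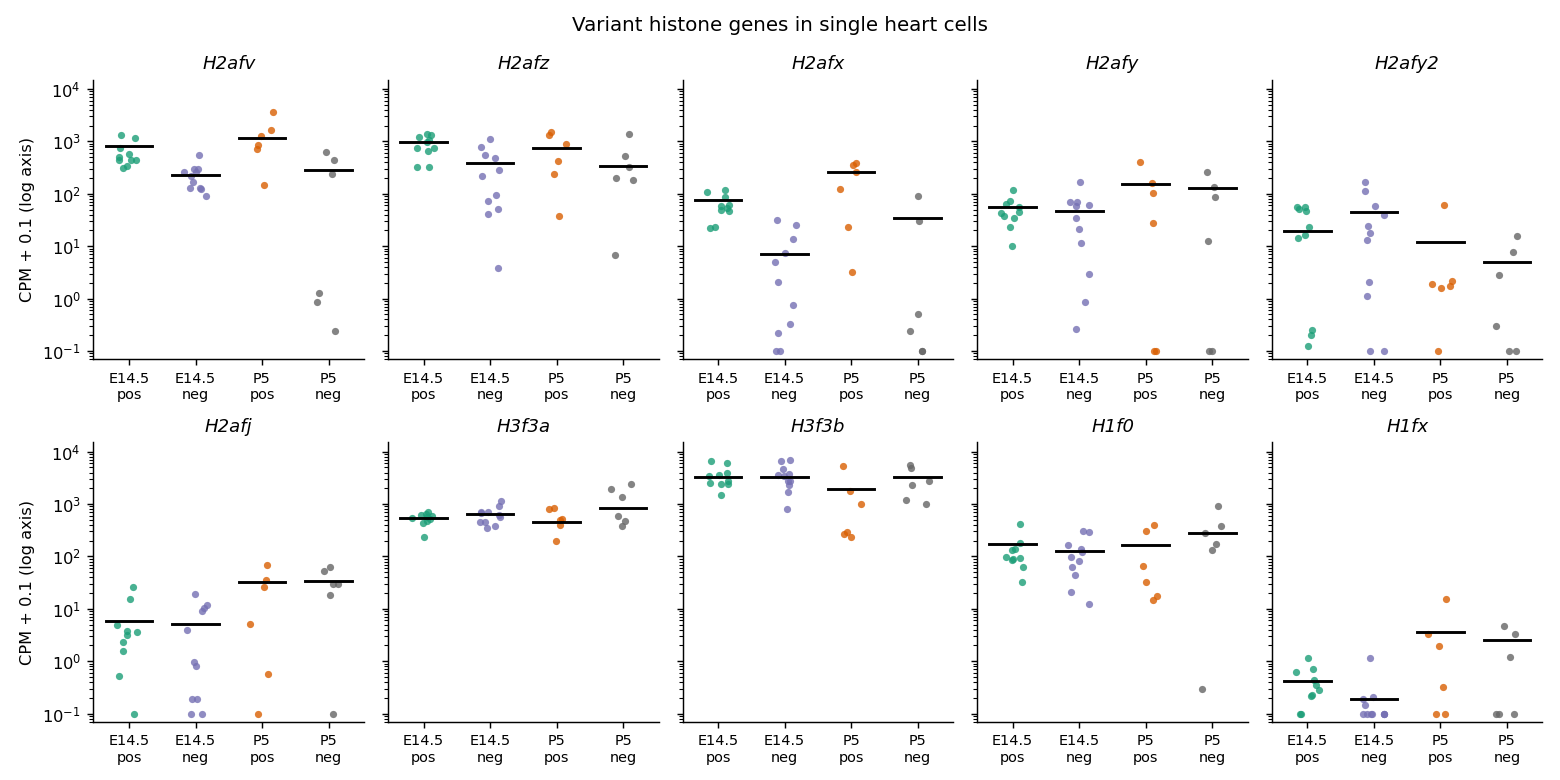
Level of the 10 variant histone genes (CPM + 0.1, log axis) in each cell, 1 point per cell, for the 4 groups, with a black bar at the CPM of the group's summed counts. H2afv, H2afz and H2afx have higher bars in positive than in negative cells at both ages (H2afx 75.7 against 7.05 CPM at E14.5 and 263 against 34.4 CPM at P5), with cells of both kinds overlapping, while H3f3b is among the highest in all 4 groups.

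At E14.5 the H2A variants that differed most between the sorts were both H2A.Z genes and H2A.X. They were higher in mAG-hGem positive cells, by 2.47-fold for H2afz, 3.56-fold for H2afv and 10.7-fold for H2afx. The H3.3 genes were at nearly the same level in both groups. Of the 4 most counted replication-linked genes, Hist1h1c was 4.67-fold and Hist3h2a 3.17-fold lower in positive cells. Hist1h2bc was lower and Hist2h2be higher, each with over 50% of the higher group's counts from 1 cell. No member had every positive cell above every negative cell, which was so for 0.198% of all rows, and none had every positive cell below, which was so for 0 rows.

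H2afv (ENSMUSG00000041126, chr11:6427229-6444443, minus strand) encodes H2A.Z.2. It was read at 307 CPM (G2) to 1344 CPM (G27) in E14.5 positive cells, with a median of 476. In E14.5 negative cells it was read at 88.6 CPM (N21) to 549 CPM (N24), with a median of 219. The lowest positive cells lay within the range of the negative ones. Summed over cells the levels were 817 and 229 CPM, a log2 ratio of 1.83 (1.82 to 1.85).

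H2afz (ENSMUSG00000037894, chr3:137864487-137866922, plus strand) encodes H2A.Z.1. Its E14.5 positive cells spread from 318 (G2) to 1366 CPM (G28), median 862, and its negative cells from 3.70 (N21) to 1089 CPM (N24), median 222. N24 alone among the negative cells exceeded the positive median. The summed levels were 975 and 394 CPM, a log2 ratio of 1.31 (1.29 to 1.32). G2 was the lowest positive cell and N21 the lowest negative cell for both H2A.Z genes, and N24 was the highest negative cell for both.

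H2afx (ENSMUSG00000049932, chr9:44334694-44336077, plus strand) encodes H2A.X, the variant that is phosphorylated at DNA breaks. In E14.5 positive cells it ran from 22.1 CPM (G2) to 119 CPM (G27), with a median of 56.6. In E14.5 negative cells it ran from 0 (N10 and N21) to 30.8 CPM (N5), with a median of 1.96. The overlap was small: the positive cells G2 and G29 (23.1 CPM) lay below the negative cells N5 and N25 (25.7 CPM). The summed levels were 75.7 and 7.05 CPM, with a log2 ratio of 3.42 (3.34 to 3.51). H2afx is also the variant with a stem-loop, shown above.

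The other H2A variants were lower or differed less at E14.5. H2afy2, which encodes macroH2A2, was lower in positive cells, at 19.4 against 44.0 CPM, a log2 ratio of -1.18 (-1.24 to -1.12). Its positive cells ran from 0.0260 to 56.7 CPM and its negative cells from 0 to 167 CPM, and in cells led by cardiomyocyte markers the ratio was -0.92. H2afy, which encodes macroH2A1, had 56.2 and 47.5 CPM (log2 ratio 0.24), and H2afj, which encodes H2A.J, had 5.69 and 4.98 CPM (0.19). Without G25 the H2afj ratio was -0.61.

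H3.3 was the most abundant variant, and its gene H3f3b had the most even summed level between the E14.5 groups, though not between cells. H3f3b (ENSMUSG00000016559, chr11:116021912-116027962, minus strand) summed to 3273 CPM in positive cells at E14.5 and to 3291 CPM in negative ones, a log2 ratio of -0.01 that was 0.03 with TMM factors. Its cells ran from 1466 (G8) to 6598 CPM (G2) in the first and from 789 (N28) to 6978 CPM (N7) in the second. H3f3a (chr1:180800832-180813943, minus strand), which encodes the same protein, had 540 and 654 CPM, a log2 ratio of -0.28. G2, the lowest positive cell for both H2A.Z genes and H2A.X, was thus the highest for H3f3b.

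The linker variant H1f0 encodes H1.0, which is known from cells that no longer divide. At E14.5 it had 174 CPM in the positive cells, against 125 CPM in the negative ones (log2 ratio 0.48). The medians were 96.1 and 96.0 CPM, and without G27, at 411 CPM, the ratio became -0.35. H1fx, which encodes H1.10, had 50 counts in all E14.5 positive cells together and 17 in the negative ones, too few to describe further.

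**Figure D3:**
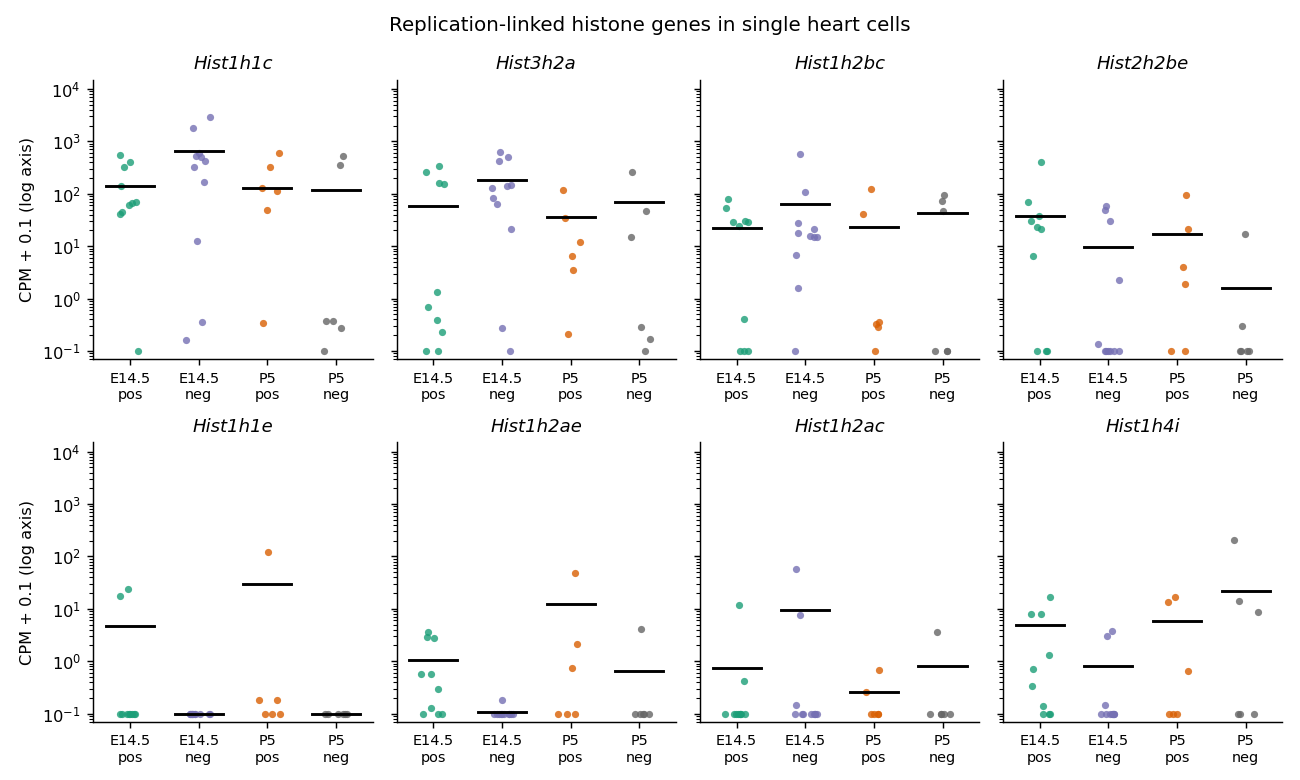
Level of 8 replication-linked rows (CPM + 0.1, log axis) in each cell, 1 point per cell, for the 4 groups, with a black bar at the CPM of the group's summed counts. Hist1h1c has its highest bar in E14.5 negative cells (657 CPM), while Hist1h1e and Hist1h2ae rest on 1 P5 positive cell, L2P12, at 124 and 49.0 CPM.

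The E14.5 negative cells held 928 CPM of replication-linked histone counts and the positive cells 290 CPM. Single cells ran from 54.4 (N24) to 3536 CPM (N21) among the negative, with a median of 555, and from 66.3 (G27) to 818 CPM (G2) among the positive, with a median of 334. By family, H1 rows summed to 154 CPM in the positive and to 658 CPM in the negative group and H2A rows to 62.8 and 194 CPM. Hist1h1c made up most of the H1 sum and Hist3h2a most of the H2A sum in both groups. The other H1 rows were higher in positive cells. Hist1h1a, Hist1h1b, Hist1h1d and Hist1h1e were there at 0.455, 5.86, 2.21 and 4.59 CPM. In cardiomyocyte-led negative cells they were at 0, 0, 1.45 and 0 CPM. Each of them was read in 3 to 5 of all 33 cells. H2B rows were nearer, at 64.9 and 73.6 CPM. H4 rows were higher in positive cells, at 6.91 and 2.42 CPM, as were H3 rows, at 1.35 CPM against a single count among all negative cells (0.00511 CPM).

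Hist1h1c (ENSMUSG00000036181, chr13:23738808-23740367, plus strand) encodes linker histone H1.2. It was read at 0 (G5) to 540 CPM (G1) in E14.5 positive cells, median 67.3, and at 0.0593 (N30) to 2921 CPM (N21) in negative cells, median 418. N21 and N23, at 1793 CPM, stood above all other negative cells. The log2 ratio of the summed levels, 141 and 657 CPM, was -2.22 (-2.24 to -2.20), and without N23 it was -1.69.

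Hist3h2a (ENSMUSG00000078851, chr11:58954685-58956830, plus strand) encodes a core H2A. Its E14.5 cells were largely on or off. It reached 10 CPM in 4 of 10 positive cells, up to 346 CPM (G10), with a median of 0.911, and in 9 of 11 negative cells, up to 622 CPM (N5), with a median of 128. The summed levels were 58.1 and 184 CPM, and the log2 ratio was -1.66 (-1.70 to -1.63). Without G10 it was -2.26.

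Hist1h2bc (chr13:23684199-23692908, plus strand) and Hist2h2be (chr3:96221119-96223738, plus strand) encode core H2B, and each rested on 1 cell at E14.5. Hist1h2bc stood at 21.7 CPM (positive) and 64.1 CPM (negative), with a log2 ratio of -1.56 (-1.62 to -1.51). N21 stood at 576 CPM, and without it the ratio was -0.44. The median was higher in positive cells, at 26.5 against 15.4 CPM. Hist2h2be had 38.2 and 9.36 CPM (2.03, 1.95 to 2.11). G5 stood at 400 CPM, and without it the ratio was 0.65. Reads of Hist2h2be were present in 7 of the 10 positive but in 5 of the 11 negative cells.

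The less counted rows went the other way in number, and on few cells. With 0.5 count added to each side, 27 of the 40 replication-linked rows had at least 10 counts over both E14.5 groups. Of these, 17 were at least 2-fold higher in positive cells, where 22.4% of all 12633 rows were, and 7 were at least 2-fold lower, where 29% of all rows were. A row that reached the minimum through 1 group alone had to differ, so these counts describe the rows and support no direction. In 15 of the 17 more than 50% of the positive counts came from 1 cell. The median log2 ratio of the 27 rows was 3.55, against -0.16 for all rows, but over the 4 rows that reached 10 CPM in either group it was -1.61. Of the 10 variants 4 were at least 2-fold higher and 1 lower, and none of the 4 had more than 50% of its counts from 1 cell. Their median was 0.36.

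These rows show how thin the counts are. Hist1h1e, which encodes H1.4, had 725 counts (4.59 CPM) in E14.5 positive cells, from 2 cells and up to 24.1 CPM in G28. It had none in negative cells, which allows up to 0.0153 CPM over the group, so the level was at least 299-fold higher in these libraries. Hist1h2ae had 0.936 CPM in positive cells and a single count in negative cells, a log2 ratio of 7.52 (5.02 to 12.83). Hist1h2ac had 0.645 and 9.43 CPM, of which N23 gave 93.1%.

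The E14.5 cells carry title numbers that fall into 2 runs, up to 10 and above 20, and the labels do not say what the runs are. Each comparison was made within each run. In the first and the second run the log2 ratio was 0.92 and 2.17 for H2afv, 1.16 and 1.40 for H2afz, 2.3998 and 3.90 for H2afx, and -0.52 and -1.82 for H2afy2. These 4 kept their direction. Hist1h1c was at -1.44 and -2.52 and Hist3h2a at -0.78 and -10.22. Hist1h2bc changed direction, at 0.99 and -2.16, and Hist2h2be was at 2.22 and 0.25.

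From E14.5 positive to P5 positive cells H2afx was higher still, by 3.47-fold. H2afj was 5.66-fold and H2afy 2.71-fold higher, while H2afv was 1.40-fold higher, H2afz 1.33-fold lower and H3f3b 1.70-fold lower. The sum of replication-linked rows was nearly the same at both ages, with 282 CPM at P5 and 290 CPM at E14.5. Without L2P12 the sum at P5 was 221 CPM. This comparison and the E14.5 one share the E14.5 positive cells.

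H2afx was read at 3.14 (L1P5) to 388 CPM (L2P8) in P5 positive cells, with a median of 193, where E14.5 positive cells ran from 22.1 to 119 CPM. L1P5 lay below all E14.5 positive cells. The summed level was 263 CPM and the log2 ratio 1.795 (1.76 to 1.83). In the 5 cells led by cardiomyocyte markers H2afx stood at 233 CPM.

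H2afv had 1141 CPM in P5 positive cells, with a median of 1049. Its cells ran from 148 (L2P10) to 3594 CPM (L1P5), the highest value of this gene in any cell. L2P10 was also far below the rest of its group in G2/M genes, as given below. H2afz had 733 CPM, from 38.1 (L2P10) to 1505 CPM (L2P3), with a median of 653. The log2 ratios to E14.5 positive cells were 0.48 for H2afv and -0.41 for H2afz, and without L2P12 they were 0.43 and -0.87.

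H2afj, which encodes an H2A described in senescent cells, had 32.2 CPM at P5 against 5.69 CPM at E14.5 (log2 ratio 2.50, 2.39 to 2.61), with P5 positive cells from 0 to 67.7 CPM (L2P8) and a median of 15.5. Without L2P8 the ratio was 1.63. H2afy had 152 CPM (1.44, 1.40 to 1.48), of which L2P12, at 397 CPM, gave 63.6%. Without L2P12 its ratio was 0.38. H2afy2 had 11.7 CPM (-0.73), and L2P3 stood at 62.2 CPM where the median was 1.71.

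H3f3b had 1924 CPM in P5 positive cells, with cells from 233 (L1P5) to 5282 CPM (L2P12) and a median of 657. The log2 ratio to E14.5 positive cells was -0.77, and without L2P12 it was -1.96, at 839 CPM over the remaining 5 cells. H3f3a had 449 CPM (log2 ratio -0.27), from 201 to 833 CPM (L1P5). H1f0 had 165 CPM (-0.07) with a median of 49.5. Its P5 positive cells ran from 14.5 to 395 CPM (L2P12), and the 5 others summed to 91.1 CPM.

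Of the replication-linked genes, Hist1h1c had 127 CPM in P5 positive cells (median 122, from 0.240 in L2P7 to 586 CPM in L1P5), a log2 ratio of -0.15. Hist1h2bc had 22.7 CPM (0.07, -0.01 to 0.14), with 75.3% of the counts from L2P10 at 125 CPM, and without L2P10 the ratio was -1.74. Hist3h2a had 36.7 CPM (-0.66), with 120 CPM in L2P12, and the other 5 cells summed to 9.69 CPM, which gives -2.58. Hist2h2be had 17.3 CPM (-1.15, -1.23 to -1.07), and without G5 the ratio was 0.23. The cells of the 2 groups overlapped for each of these 4 genes.

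At this step 37 replication-linked rows had at least 10 counts over both groups. In P5 positive cells 16 were at least 2-fold higher, where 30.3% of all 12262 rows were, and 13 were lower, where 40.9% of all rows were. In all 16 of the first and in 12 of the 13 more than 50% of the counts came from 1 cell, and without L2P12 the 16 became 1. The median log2 ratio was 0.07, against -0.39 for all rows. Of the variants 4 were higher (H2afx, H2afj, H2afy and H1fx) and 0 lower. In 3 of these 4 more than 50% of the counts came from 1 cell. No member's groups were apart, where 0.261% of all rows had every P5 positive cell higher and 0.718% every one lower. The scaling matters most here: with DESeq2 size factors the median of all rows moved from -0.39 to -0.00226, and the log2 ratios of Hist1h1c (0.23), H1f0 (0.31) and H3f3a (0.12) changed sign. TMM factors also turned Hist1h1c (0.0035) and H1f0 (0.08).

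At P5 the positive cells again had more H2A.Z and H2A.X mRNA than the negative cells. H2afv was 4.06-fold, H2afz 2.17-fold and H2afx 7.63-fold higher, and both H3.3 genes were lower. Since no P5 negative cell was led by cardiomyocyte markers, this sets 5 cardiomyocyte-led cells and L2P12 against 6 cells with endothelial, red blood cell or fibroblast markers. The part of the cell type in these differences was not tested. The comparison shares the P5 positive cells with the one before. The P5 titles start with L1 (L1P5 and L1N3) or with L2, and the labels do not say what this marks. With 1 cell of each sort, L1 is too small for values of its own. L1P5 was the P5 positive cell with the most H2afv and the least H2afx and H3f3b. It was also the shallowest of all 33 libraries, with 2.55 M counts and 3991 genes detected.

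H2afv had 281 CPM in P5 negative cells, from 0.142 (L1N3) to 630 CPM (L2N9) with a median of 118. This gave a log2 ratio of 2.02 (2.002 to 2.04). H2afz had 338 CPM, from 6.79 (L1N3) to 1380 CPM (L2N4) with a median of 260, and a log2 ratio of 1.12 (1.10 to 1.14). Without L2P12 the H2afz ratio was 0.66. L1N3, with 225566 CPM of red blood cell markers, was the lowest cell for both H2A.Z genes.

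H2afx had 34.4 CPM in P5 negative cells. Its median was 0.277 CPM and L2N7 alone stood at 88.6 CPM. The log2 ratio was 2.93 (2.88 to 2.99) with L2N7 and 5.39 without it. L1P5 at 3.14 CPM and L2P10 at 22.6 CPM lay below L2N7, so the groups overlapped. H2afy2 was at 11.7 and 4.86 CPM (1.27, 1.10 to 1.44), and without L2P3 the ratio was -1.51.

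Both H3.3 genes and H1f0 were lower in P5 positive cells, and the directions of H2afy, H2afj and H1fx rested on single cells or the scaling. H3f3b had 3269 CPM in negative cells (log2 ratio -0.76, and -1.96 without L2P12) and H3f3a had 828 CPM (-0.88). H1f0 had 285 CPM (-0.79, and -1.65 without L2P12), with 924 CPM in L1N3. H2afy had 126 CPM (0.27), with -0.79 without L2P12 and 1.40 without L2N7. The level of H2afj was 33.3 CPM (-0.05, and 0.09 with TMM factors). H1fx was low in both groups, at 3.53 and 2.41 CPM (0.55, and -0.96 without L2P3).

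Replication-linked rows summed to 264 CPM in P5 negative cells, from 0.194 (L2N4) to 753 CPM (L1N3) with a median of 134. The positive cells were near this, at 282 CPM, or 221 CPM without L2P12. Hist1h1c was at 127 and 116 CPM (log2 ratio 0.13), with a median of 0.274 CPM in the negative cells and 516 CPM in L1N3. Without L2N7 the ratio was -0.47 and without L2N12 it was 1.19. Hist3h2a was at 36.7 and 69.1 CPM (-0.91), of which L2N12 held 255 CPM, and without L2N12 the ratio was 0.75. Hist1h2bc was at 22.7 and 42.7 CPM (-0.91, and -2.71 without L2P10). Hist2h2be was at 17.3 and 1.47 CPM (3.55), and without L2P3 the ratio was 0.14. Hist1h4i, an H4 gene, was at 5.76 and 22.1 CPM (-1.94), of which L1N3, at 204 CPM, gave 78.5%, and without L1N3 the ratio was 0.15.

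In this comparison 27 replication-linked rows had at least 10 counts over both groups. In P5 positive cells 17 were at least 2-fold higher, where 34.2% of all 11567 rows were, and 5 were lower, where 39.4% of all rows were. All 22 had more than 50% of the higher group's counts from 1 cell, and without L2P12 the 17 became 3. Of the variants 4 were higher (H2afv, H2afx, H2afy2 and H2afz) and 0 lower, and without L2P3 the 4 became 2. No member's groups were apart, where 1.43% of all rows had every P5 positive cell higher and 0.130% every one lower.

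Most replication-linked rows were thus seen in very few cells. In 28 of the 40 rows more than 50% of all counts came from 1 cell, and in 14 more than 90%. Only 16 rows reached 10 CPM in any cell, and 6 did so in 3 or more cells. In 22 rows the highest count was in L2P12 (15 rows) or G28 (7 rows). Of the counts of the 36 rows outside the 4 most counted, L2P12 gave 37.8% and G28 gave 14.5%. Their summed level was 298 CPM in L2P12, 204 in L1N3, 119 in G2 and 107 in G28.

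L2P12 and G28 read the most of these genes at once, while L1N3 had reads for 6 rows. L2P12 had reads for 31 of the 40 rows and G28 for 23, G1 for 17 and L2P7 for 15, and every other cell for 13 or fewer. Deeper libraries read more rows, so all cells with enough counts were drawn down to 5989622 counts, which left out the 2 shallowest. L2P12 then had 28 rows, G28 18 and the next cell, G1, 16. In G28 the rows included Hist1h1b at 38.2 CPM, Hist1h1e at 24.1, Hist1h1d at 11.5, Hist1h4f at 8.66, Hist1h4d at 4.58 and Hist1h2bm at 4.46 CPM. In L2P12 they included Hist1h1e at 124 CPM, Hist1h2ae at 49.0, Hist1h1a at 26.4, Hist1h2ao at 18.1, Hist1h4i at 13.6, Hist1h2be at 12.1, Hist1h3a at 11.4, Hist1h3h at 10.97 and Hist1h2bn at 8.71 CPM. All 5 families were present in L2P12.

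The 8 H3 rows were the most concentrated. Of their 905 counts in all cells, 678 were in L2P12 and 139 in G28, which is 90.3%, and 5 cells had more than 3 counts. Hist1h1e had 30.2 CPM in P5 positive cells, 99.9% of it in L2P12, and none in P5 negative cells (up to 0.0362 CPM), a difference of at least 836-fold between these libraries. Without L2P12 its level in P5 positive cells was 0.0287 CPM. Hist1h2ae had 12.3 CPM, 97.0% of it in L2P12. L2P12 is the cell whose cardiomyocyte markers summed to 112 CPM, and G28 is led by cardiomyocyte markers.

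The histone levels were set beside the cell cycle through 2 lists, 38 S phase and 50 G2/M genes, which hold no histone. At E14.5, 49 of the 50 G2/M genes were at least 2-fold higher in positive cells, with a median log2 ratio of 4.04. Of the 38 S phase genes 12 were higher and 5 lower, with a median of 0.51. Of all rows, 22.4% were higher and 29% lower. At P5, 46 G2/M genes were higher and 0 lower in positive cells (median 4.62), while 7 S phase genes were higher and 19 of 37 lower (median -1.13). The shares over all rows were 34.2% higher and 39.4% lower. From E14.5 to P5 positive cells 3 of the 38 S phase genes were higher and 15 lower, where 30.3% and 40.9% of all rows were. The S phase genes that were lower were thus near the share over all rows. Of the 50 G2/M genes 11 were higher and 4 lower. Among P5 positive cells L2P10 had a G2/M sum of 1467 CPM, where the others had 22290 to 26466 CPM. P5 negative cells had 184 to 4321 CPM. The S phase sum of L2P10, 444 CPM, was also the lowest of its group.

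Cells with the most S phase mRNA were not those with the highest sum of replication-linked rows. Over all cells Hist1h1c, Hist3h2a, Hist1h2bc and Hist2h2be held 93.5% of these counts, so the sum says little about the other rows. The highest S phase sums were 25699 CPM in L2N4, 21902 in N24, 16092 in G6 and 11903 in L2N9, and the replication-linked rows of these cells summed to 0.194, 54.4, 74.2 and 153 CPM. L2N4 was among the 2 shallowest cells, with 5.15 M counts, 2994 genes detected and reads for 1 of the 40 rows. Among the 11 E14.5 negative cells the 2 sums ran against each other, with a Spearman rho of -0.78 and a Pearson r on log2 values of -0.84, and -0.64 without the 2 cells farthest from the median S phase sum. Among the 10 E14.5 positive cells they were hardly related (rho -0.05, r -0.30, and 0.15 without 2 cells). Single rows differed. Over the 21 E14.5 cells rho with the S phase sum was -0.43 for Hist1h1c, -0.17 for Hist3h2a and -0.03 for Hist1h2bc. It was 0.16 for Hist2h2be, 0.32 for Hist1h1e, 0.35 for Hist1h4i (r 0.04), 0.05 for Hist1h2ac and 0.56 for Hist1h2ae. These values pool both sorts. Within positive and negative cells rho was 0.08 and -0.66 for Hist1h1c, 0.40 and -0.36 for Hist3h2a, and 0.23 and -0.50 for Hist1h2bc. For Hist2h2be it was -0.26 and -0.005, for Hist1h4i -0.28 and 0.62, for Hist1h2ac -0.11 and 0.24, and for Hist1h2ae 0.30 in both. Hist1h1e, without reads in negative cells, had 0.24 in positive cells. Both sums of a cell are shares of the same total, and these values are a description over few cells.

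The H2A.Z and H2A.X genes were set beside the same lists. H2afz was higher in E14.5 negative cells with a higher S phase sum (rho 0.77, r 0.79, and 0.71 without 2 cells) with little relation among positive cells (0.24, 0.13 and 0.08). The difference between the groups was not tested. H2afz with the G2/M sum had a rho of 0.24 and an r of 0.53 in positive cells, and 0.49 without 2 cells. In negative cells these were 0.14, 0.15 and 0.12. H2afv went with the G2/M sum in positive cells (rho 0.55, r 0.63, and 0.49 without 2 cells) and in negative cells (0.44, 0.54 and 0.50). With the S phase sum H2afv had a rho of -0.12 in positive and 0.33 in negative cells, where r was 0.59, and -0.10 without 2 cells. H2afx with the G2/M sum had a rho of 0.42 and an r of 0.51 in positive cells, which was 0.12 without 2 cells, and 0.52, 0.32 and 0.57 in negative cells.

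**Figure D4:**
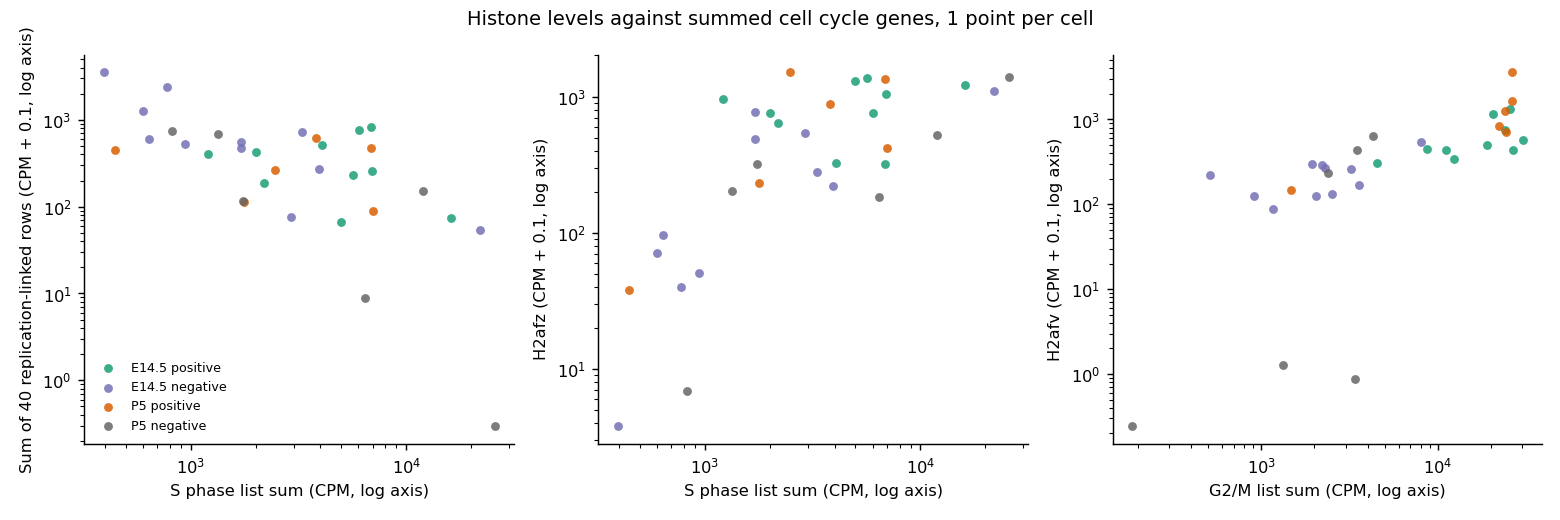
Each point is 1 of 33 cells, coloured by group, on log axes of CPM. The panels set the summed level of the 40 replication-linked rows and that of H2afz against the summed S phase list, and H2afv against the summed G2/M list. Cells with the highest S phase sums, such as L2N4 and N24, have low replication-linked sums (0.194 and 54.4 CPM). L2N4 is a shallow library, with 5.15 M counts and 2994 genes detected.

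Genes that make, carry and place histones were read from a list of 36: 14 for transcription and end processing of replication-linked mRNA, 21 chaperones and Cenpa, the centromeric H3 variant. At E14.5, 10 of the 36 were at least 2-fold higher in positive cells and 6 lower, where 22.4% and 29% of all rows were, with a median log2 ratio of 0.24 against -0.16 for all rows. Cenpa was at 235 CPM (13.1 to 604 in single cells) in positive and 8.67 CPM (0 to 52.9) in negative cells, a log2 ratio of 4.76. Asf1b, an H3-H4 chaperone of dividing cells, was at 56.6 and 5.16 CPM (3.46). Cstf2, part of the end processing machinery, was at 50.4 and 24.2 CPM (1.06). Its copy Cstf2t was lower in positive cells, at 71.7 and 184 CPM (-1.36), as were Npat, the activator of histone gene clusters, at 55.2 and 127 CPM (-1.21, with 59.8% of the negative counts from N24), and Cpsf2 at 112 and 243 CPM (-1.12). Slbp, the stem-loop binding protein, was low in both, at 3.91 and 4.11 CPM.

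From E14.5 to P5 positive cells 6 of the 36 were higher and 14 lower, where 30.3% and 40.9% of all rows were, with a median log2 ratio of -0.54 against -0.39 for all rows. Cenpa was higher again, at 776 CPM (1.72), and Asf1b was at 109 CPM (0.95). Atrx, an H3.3 remodeller, went from 477 to 81.1 CPM (-2.56), Nasp, the H1 and H3-H4 chaperone, from 646 to 159 CPM (-2.02), Npm1 from 2422 to 857 CPM (-1.498) and Hjurp, which places CENP-A, from 53.4 to 19.9 CPM (-1.42), with 82.8% of the E14.5 counts from G29.

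At P5, 12 of the 33 supply genes with enough counts were higher in positive cells and 11 lower, where 34.2% and 39.4% of all rows were, with a median of -0.09 against -0.29 for all rows. Asf1b was at 109 and 2.11 CPM (5.69), Cenpa at 776 and 53.0 CPM (3.87), Anp32e, which removes H2A.Z from chromatin, at 338 and 89.8 CPM (1.91) and Cpsf2 at 131 and 49.8 CPM (1.40). Lower in positive cells were Cstf2 at 27.5 and 146 CPM (-2.41, with 80.5% of the negative counts from L2N7), Cpsf3 at 33.1 and 143 CPM (-2.11), Nap1l1 at 279 and 731 CPM (-1.39) and Npm1 at 857 and 2076 CPM (-1.28). Slbp was at 4.08 and 17.6 CPM.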

How the data were processed

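Reads per gene were measured in 33 single mouse heart cells. Per the submitters' processing notes, CASAVA 1.8.2, STAR 2.4.0j and HTSeq 0.6.1p1 were used with mm10. The annotation release, strand setting and handling of reads with several matches are not given in the sources used here. The deposited table holds raw counts for 14862 rows. A group's CPM is its pooled count per 1000000 pooled counts (exact Poisson intervals) and ratios are log2 ratios of these (exact Clopper-Pearson intervals, 95%). Each group is 1 sample, so no test was made. For medians and counts of rows 0.5 count was added, with at least 10 counts over both groups. A group at 0 has a floor of 3 counts over the group. Doublets were not called.

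Named genes are all variants, the 8 most counted replication-linked rows, the 3 highest and 3 lowest ratios per comparison among rows at 10 CPM, and up to 4 supply genes per direction with a 2-fold difference and 50 CPM. Other genes named for G28, L2P12, shared sequence or low counts were chosen after their values were seen. The members and lists were chosen with earlier results of these data known. Alternatives were other scalings (edgeR 4.0.16 TMM, DESeq2 1.42.0 size factors), count minimums, added counts, equal weight of cells, cardiomyocyte-led cells only, title number runs and leaving out each cell. Depth was 2.55 to 38.5 M (1000000) counts per cell. Tested on simulated data for P5 positive over E14.5 positive cells (14862 rows), 96% of 200 changed rows were recovered. The simulated counts had counting error only, with no spread between cells, and the changed rows had at least 200 counts. The simulation therefore checks the calculation of the ratio and says nothing about rows that rest on single cells. Python 3.11.15, numpy 2.4.6, pandas 2.3.3, scipy 1.17.1 and R 4.3.3 were used. Stem-loops and shared stretches come from GENCODE M21 transcripts and promoters from RefSeq.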

Additional observations from a re-analysis of the deposited data

Results flagged for a closer look

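Single cells that stood far from the rest of their group were looked for in 36 groups of values, and 5 were found. Chance alone gives about 1 in 20 if values are normally distributed, which was not checked. The values were the sums of both classes and the 10 variant rows, in all groups but the E14.5 negative cells. Those 11 cells were not screened, since the limits used end at 10 cells. In E14.5 positive cells G27 had 410.9 CPM of H1f0, and the next cell 178.7 CPM. In P5 positive cells L2P3 had 15.1 CPM of H1fx, where the next cell had 3.27, and 62.2 CPM of H2afy2, where the next had 2.06. L2P12, the P5 positive cell with low cardiomyocyte markers, had 5282 CPM of H3f3b, and the next cell 1811 CPM. In P5 negative cells L2N7 had 88.6 CPM of H2afx, and the next cell 30.2 CPM. No cause was tested for any of these values.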

How the results depend on the processing

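The count of histone rows past 2-fold in the E14.5 comparison was 29 as reported and 15 with title numbers up to 10. With cardiomyocyte-led cells only, the median log2 ratio of replication-linked rows from E14.5 to P5 positive cells was -4.17, against 0.07 as reported, and leaving out single cells gave -4.17 (L2P12) to 2.57 (G28). At P5 that median, 4.32 as reported, reversed to -2.80 without L2P12 and reached 5.13 without L2N9, and the variant median, 0.41, was -0.16 without L2P3. The P5 count past 2-fold, 26 as reported, was 16 without L2P12 and up to 28 without L2N4. For the E14.5 comparison the median, 3.55 as reported, was 1.93 without G28 and up to 5.14 without N24. For P5 positive over negative, the marker filter gave no value since no P5 negative cell passed it.

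Of 54 named gene ratios 30 were at least 2-fold, and 10 of these reversed under some setting. With title numbers up to 10 Hist1h2bc was at 0.99 and Hist1h2ac at 7.62. From E14.5 to P5 positive cells, with cardiomyocyte-led cells only, Hist1h1e was at -7.00 and Hist1h2ae at -0.92. Leaving out single cells there, Hist1h1e ran from -7.00 to 4.78, Hist1h2ae from -0.92 to 4.66, Hist1h2ac from -4.17 to 2.85 (without G2) and Hist2h2be from -4.55 to 0.23 (without G5). At P5, H2afy2 ran from -1.51 (without L2P3) to 2.46, Hist1h2ae from -0.15 (without L2P12) to 10.79, Hist1h4i from -2.77 to 0.15 (without L1N3) and Hist1h2ac from -4.34 to 4.48 (without L2N12). The cause was not tested. Drawing cells down to 1 depth was chosen after seeing the data: rows with a read went from 31 to 28 in L2P12 and from 23 to 18 in G28. No paired analysis was possible because each group is 1 sample and no test was made. Depth limits the least counted rows: those with fewer than 10 counts over both groups were not compared.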
